A study of Mus musculus with 24 samples.

Results

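The genes described here encode the enzymes that make, reuse and break down purine and pyrimidine nucleotides. They were chosen by name from what each enzyme does, as a list of 51 genes, and 46 of them had an amplicon among the 23930 in the table. Pnp, Impdh2, Nme1, Nme2 and Itpa were not analysed here. De novo synthesis builds the bases stepwise from small molecules, whereas salvage kinases and phosphoribosyltransferases put nucleosides and free bases back into the nucleotide pool. Nucleoside and nucleotide breakdown works in the opposite direction, through deaminases, phosphorylases and nucleotidases. Cells that copy their DNA also need deoxynucleotides, which ribonucleotide reductase makes from ribonucleotides and which thymidylate synthase and its partners turn into thymidine nucleotides. SLC29A3 carries nucleosides across the lysosomal membrane, so that its loss leaves nucleosides from degraded cells in the lysosome, where TLR7 senses guanosine and deoxyguanosine.

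RNA of splenic monocytes was sequenced from untreated C57BL/6 mice of 3 genotypes, with 4 libraries in each of 6 groups of subset and genotype and 24 libraries in all. Slc29a3-/- mice carry an insertion with a stop codon made by CRISPR/Cas9, Slc29a3-/- Tlr7-/- mice carry in addition a deletion in Tlr7, and WT mice were purchased. Both losses are in every cell of the animal, the ages are not given in the sources used here, and a group with the Tlr7 mutation alone was not analysed here. The cells were sorted fresh from CD11b positive cells negative for Ly6G, SiglecF and NK1.1, as Ly6C hi cells or as Ly6C low cells positive for FcγRIV (Fcgr4). The study's methods also require low Fcgr4 of the Ly6C hi cells, which their labels do not name. The labels call them macrophages, whereas the study calls them monocytes. Since no source states that replicates came from separate mice, p-values measure the spread between these libraries, which may be partly technical.

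Each value is the reads of a single amplicon per gene, scaled to 1000000 per library (RPM), so levels were compared between libraries and not between genes. Libraries held 12310915 to 14573147 reads, as inferred from the step between low values, and 3 reads correspond to 0.206 to 0.244 RPM. Floors of this kind cover counting error only. The Slc29a3 and Tlr7 amplicons stayed at 40.7 to 413 RPM and 111 to 627 RPM over the 24 libraries, mutants included, so they do not check these small mutations. In both subsets, barcodes 11 to 16 belong to WT replicates 1 to 3. WT replicate 4 carries a later barcode, as the mutant libraries do, and stood apart from the other 3 in both subsets. By distance over genes in log2(RPM + 1), Ly6C hi WT replicates 1 to 3 lay 24.3 to 25.6 apart. WT replicate 4 lay 65.6 to 66.6 from them, and libraries within the Ly6C hi mutant groups lay 41.7 to 85.4 apart. Ly6C hi p-values relative to WT count these close libraries as separate replicates, which no source states. The 6 measured Ly6C hi monocyte markers summed to 3428 to 9351 RPM in the Ly6C hi libraries and 92.1 to 394 RPM in the Ly6C low ones. The 10 Ly6C low markers summed to 3010 to 4572 RPM and 10026 to 19171 RPM, respectively, so the gates matched their labels.

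Loss of Slc29a3 with Tlr7 intact went with higher levels of the enzymes that supply deoxynucleotides in Ly6C hi monocytes. Relative to Slc29a3-/- Tlr7-/- cells, Slc29a3-/- cells had 11 members higher, which were Rrm1, Rrm2, Tyms, Dut, Dtymk, Tk1, Ada, Ppat, Impdh1, Ctps and Nudt1. They had 4 members lower, Dguok, Samhd1, Entpd1 and Guk1. Calls required the study's thresholds, a change of more than 1.5-fold with p below 0.05 before adjustment, in a limma model of log2(RPM + 1) in which fold changes of low genes are understated. The members called higher were 25% of the 44 tested, against 10.5% of all 10561 genes tested, and those called lower were 9.09%, against 11.9%. At a Benjamini-Hochberg adjusted p under 0.05, 14 of 44 members (31.8%) were called, against 17.2% of all genes. Relative to WT, 10 of 44 members (22.7%) were higher and 4 (9.09%) lower, against 9.38% and 17.3% of all genes. All 14 of these passed the adjusted threshold, a share of 31.8% against 22.4% of all genes. The 2 comparisons share the Slc29a3-/- libraries. With TMM scaling the split of higher and lower members was 16 and 1 relative to Slc29a3-/- Tlr7-/- and 13 and 2 relative to WT. The median gene fell by 0.12 and by 0.14 in log2 in these comparisons under the RPM scale and moved by 0.03 and 0.02 under TMM, so each change below can be read against that shift.

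**Figure D1:**
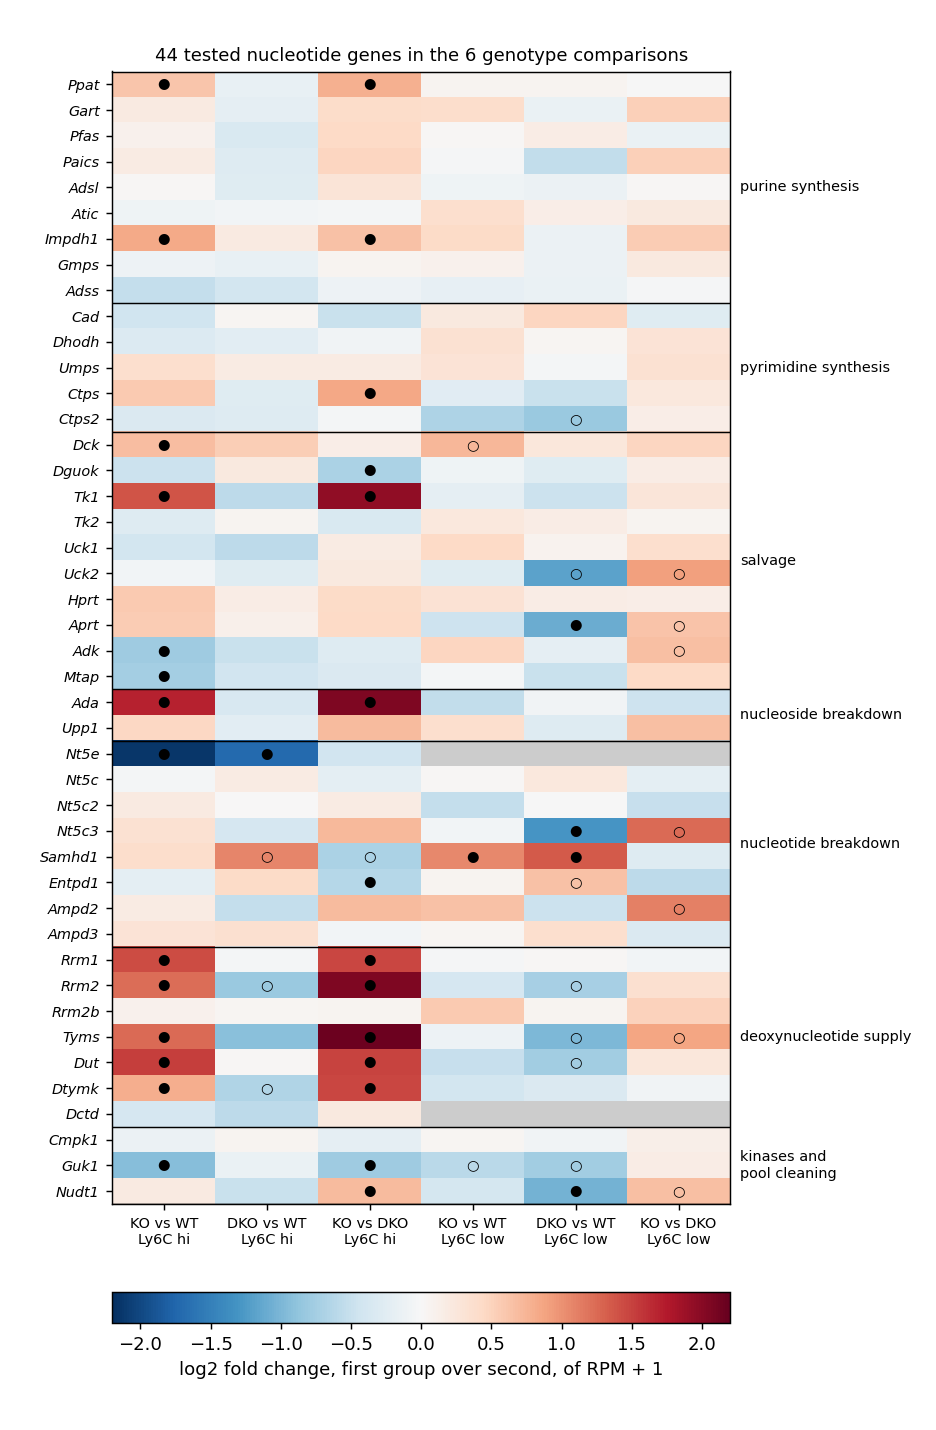
Log2 fold change of RPM + 1 of the 44 tested members (rows, by role) in the 6 genotype comparisons (columns; KO is Slc29a3-/-, DKO is Slc29a3-/- Tlr7-/-, and the color is the first group over the second). Open circles mark a fold change over 1.5 with an unadjusted p under 0.05, filled circles those that also had an adjusted p under 0.05, and gray cells were not tested; 5 of 7 deoxynucleotide supply genes are marked in both Ly6C hi columns that involve KO.

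Deoxynucleotide supply was the role with the most calls, since 5 of its 7 members were higher in Ly6C hi Slc29a3-/- monocytes in both comparisons. These were 71.4%, against 10.5% of all genes relative to Slc29a3-/- Tlr7-/- and 9.38% relative to WT. Rrm1 (chr7:102441695-102469771, mm10), the large subunit of ribonucleotide reductase, stood at 107, 104, 113 and 71.6 RPM in WT, 212, 218, 333 and 327 RPM in Slc29a3-/- and 86.6, 98.3, 72.8 and 131 RPM in Slc29a3-/- Tlr7-/- libraries. Every Slc29a3-/- library lay above every other Ly6C hi library. The mean was 2.80-fold that of Slc29a3-/- Tlr7-/- cells (log2 difference 1.48 ± 0.21 SE, adjusted p = 0.000312) and 2.76-fold that of WT (1.44 ± 0.21, adjusted p = 0.000416). Rrm2 (chr12:24708241-24714146), the small subunit whose level rises when cells enter S phase, was at 147, 138, 135 and 76.8 RPM in WT, 232, 243, 266 and 440 RPM in Slc29a3-/- and 89.6, 58.6, 39.7 and 100 RPM in Slc29a3-/- Tlr7-/- libraries. The lowest Slc29a3-/- library was again above the highest of the other groups, and replicate 4 was far above its group. Rrm2 was 4.10-fold higher than in Slc29a3-/- Tlr7-/- cells (log2 difference 2.06 ± 0.29, adjusted p = 0.000294) and 2.37-fold higher than in WT (1.23 ± 0.29, adjusted p = 0.00647). Rrm2b, the alternative small subunit induced by p53, was not called, with a log2 difference of 0.05 ± 0.28 and 0.10 ± 0.28 in the same comparisons.

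The thymidylate branch moved in the same direction. Tyms (chr5:30058202-30073617), which methylates dUMP to dTMP, was measured at 21.3, 22.5, 16.9 and 19.3 RPM in WT, 37.7, 40.4, 33 and 109 RPM in Slc29a3-/- and 16.1, 2.84, 13 and 15.5 RPM in Slc29a3-/- Tlr7-/- libraries. The groups did not overlap, although the Slc29a3-/- mean of 55.0 ± 36.1 RPM (SD, n = 4) was drawn up by replicate 4. Tyms was 4.64-fold higher than in Slc29a3-/- Tlr7-/- cells (log2 difference 2.16 ± 0.44, adjusted p = 0.00329) and 2.75-fold higher than in WT (1.24 ± 0.44, adjusted p = 0.0455). Without Slc29a3-/- replicate 4 the difference from WT was 0.86 (adjusted p = 0.15) and was no longer called. Dut (chr2:125247190-125258608), which turns dUTP into the substrate of Tyms and keeps uracil out of DNA, was at 22.5, 17, 22.9 and 17 RPM in WT, 52.3, 43.6, 54.2 and 92.3 RPM in Slc29a3-/- and 27, 14.9, 18.8 and 21.4 RPM in Slc29a3-/- Tlr7-/- libraries. Its Slc29a3-/- libraries were all above the others, with a 2.95-fold (1.49 ± 0.23, adjusted p = 0.000565) and a 3.05-fold difference (1.52 ± 0.23, adjusted p = 0.000556), respectively. Dtymk (chr1:93792576-93801934), the kinase that carries dTMP to dTDP, was at 39.1, 31.5, 32.7 and 22.6 RPM in WT, 49.3, 39.1, 62.1 and 75.4 RPM in Slc29a3-/- and 25.7, 18, 10.1 and 28.3 RPM in Slc29a3-/- Tlr7-/- libraries. Slc29a3-/- replicate 2 was level with the highest WT library, whereas all Slc29a3-/- libraries lay above the Slc29a3-/- Tlr7-/- libraries. The log2 difference was 1.47 ± 0.29 from Slc29a3-/- Tlr7-/- cells (adjusted p = 0.00257) and 0.81 ± 0.29 from WT (adjusted p = 0.0475). Dctd, which deaminates dCMP to dUMP, was low, at 0 to 2.08 RPM in the 12 Ly6C hi libraries, and was not called.

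Tk1, the cytosolic thymidine kinase, and Ada, which deaminates adenosine and deoxyadenosine, belong to salvage and to nucleoside breakdown by their reactions but followed the same pattern over libraries. Tk1 (chr11:117815526-117826092) was at 32, 33.7, 32.7 and 19 RPM in WT, 68.2, 58, 74.5 and 115 RPM in Slc29a3-/- and 24.8, 15.4, 17 and 19.9 RPM in Slc29a3-/- Tlr7-/- libraries. All Slc29a3-/- libraries exceeded all others, by 4.09-fold over Slc29a3-/- Tlr7-/- (log2 difference 1.95 ± 0.23, adjusted p = 0.000126) and 2.69-fold over WT (1.38 ± 0.23, adjusted p = 0.000981). Ada (chr2:163726584-163750239) was at 23.2, 23.4, 19.5 and 16.6 RPM in WT, 46.7, 52.7, 79.9 and 111 RPM in Slc29a3-/- and 16.7, 8.85, 16 and 25.6 RPM in Slc29a3-/- Tlr7-/- libraries. The groups again did not overlap, and Ada was 4.32-fold higher than in Slc29a3-/- Tlr7-/- cells (2.05 ± 0.30, adjusted p = 0.00035) and 3.51-fold higher than in WT (1.69 ± 0.30, adjusted p = 0.0012).

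**Figure D2:**
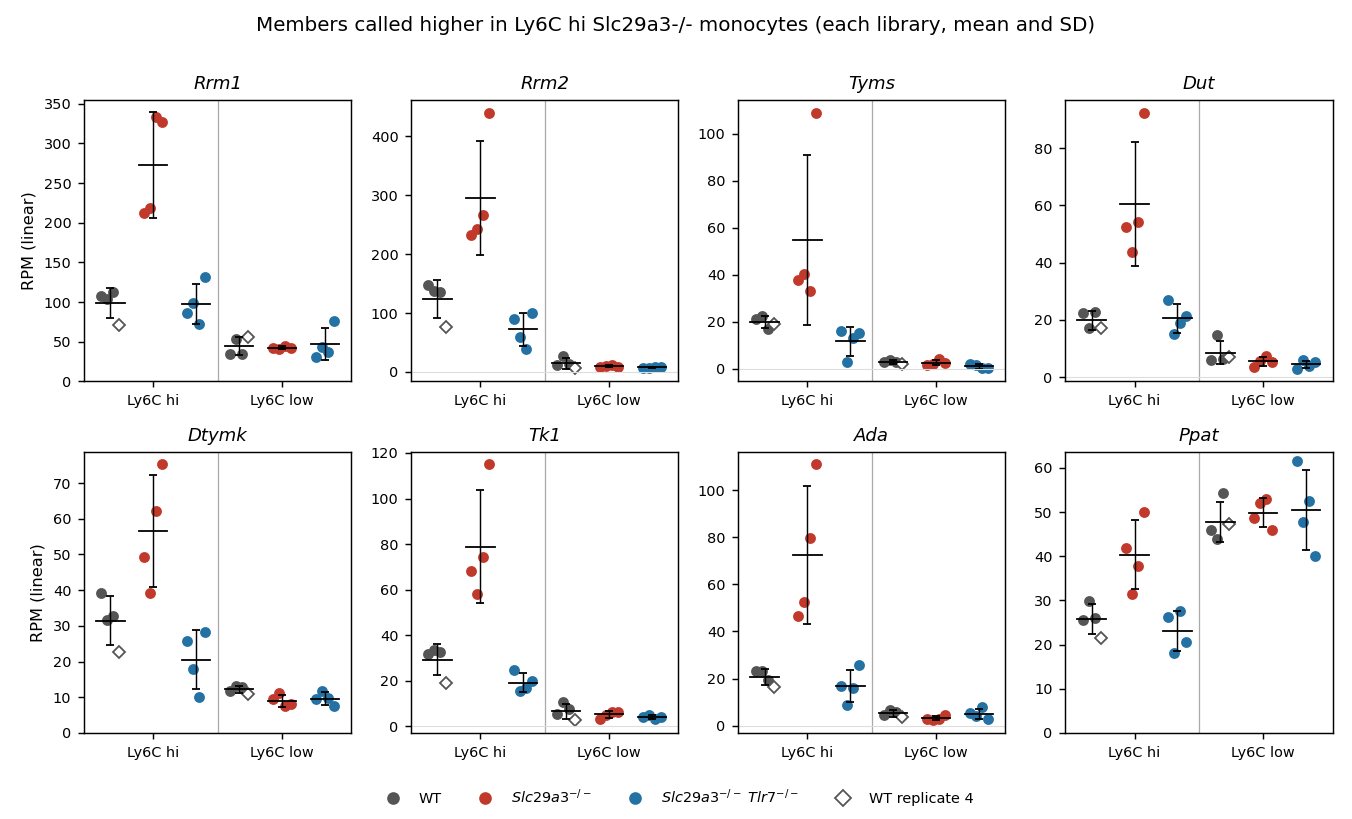
RPM of 8 members in each library of the 6 groups (linear axis; points are libraries, the long bar is the mean and the whiskers are the SD of 4 libraries; the open diamond is WT replicate 4). In the Ly6C hi panels the Slc29a3-/- libraries lie above both other groups, for Rrm1 from 212 to 333 RPM against 71.6 to 131 RPM, apart from 1 Dtymk library level with WT, whereas the Ly6C low genotypes overlap, except Dut of Slc29a3-/- Tlr7-/- and WT and Rrm2 of the mutants.

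Because 3 of 4 WT libraries differ from the mutant libraries by barcode series, Ly6C hi Slc29a3-/- cells were also compared with WT replicate 4 alone. In that comparison 12 of 42 members were called (28.6%), 9 higher and 3 lower, against 15.4% of all genes in either direction, whereas Nt5e and Dctd did not pass the filter and were not tested. The log2 differences of Rrm1 (1.88), Tk1 (1.95), Rrm2 (1.88), Ada (1.98), Dut (1.72) and Dtymk (1.24) were larger than with 4 WT libraries, and Rrm1 and Tk1 passed the adjusted threshold (adjusted p = 0.0267 and 0.0282). Tyms was 1.28 higher but was not called, with an adjusted p of 0.434. WT replicate 4 is a lone library in that fit and is assumed to vary like the other groups. It held the lowest WT level of Rrm1, Tk1, Rrm2, Ada and Dtymk, at 71.6, 19, 76.8, 16.6 and 22.6 RPM. The differences of these genes from that library alone are therefore larger.

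Genes of other programs moved with these members in the same libraries. Of 24 replication and mitosis genes, none of them members, 20 were tested, and 20 were higher in Slc29a3-/- Ly6C hi cells in each of the 2 comparisons, with a median log2 difference of 1.75 from Slc29a3-/- Tlr7-/- and 1.35 from WT. Their summed level was 2415 to 4143 RPM in Slc29a3-/-, 898 to 1475 RPM in WT and 791 to 1259 RPM in Slc29a3-/- Tlr7-/- libraries. The 13 neutrophil genes, of which Ly6C hi monocytes too express S100a8 and S100a9, summed to 77183 to 142618 RPM in Slc29a3-/-, 25143 to 34374 RPM in WT and 13760 to 41008 RPM in Slc29a3-/- Tlr7-/- libraries, with the highest sum in Slc29a3-/- replicate 4. The 10 granulocyte-monocyte progenitor genes summed to 945 to 3040, 475 to 521 and 432 to 1012 RPM, respectively. No gene of the neutrophil and progenitor lists was at the floor of 3 reads throughout a Ly6C hi group. Relative to WT, 9 of the 13 neutrophil genes were called higher (69.2%) and 2 lower (15.4%) in Slc29a3-/- cells. Of the 10 progenitor genes, 6 were higher (60%) and 2 lower (20%), against 9.38% and 17.3% of all genes. Summed genes of lymphoid and dendritic cells were lower in all Slc29a3-/- than in all WT Ly6C hi libraries, whereas erythroid sums overlapped. In WT replicate 4 the NK cell and erythroid sums were 127 and 54.6 RPM. They were 497 to 540 and 156 to 166 RPM in WT replicates 1 to 3. Of the B cell genes, 1 was tested. In WT, Slc29a3-/- and Slc29a3-/- Tlr7-/- Ly6C hi libraries, in this order, the sums were 127 to 540, 26.3 to 46.3 and 10.9 to 775 RPM for NK cell genes, 30.7 to 40.3, 15.5 to 20.8 and 15.4 to 38.6 RPM for B cell genes, and 54.6 to 166, 42.2 to 61.0 and 44.1 to 75.5 RPM for erythroid genes. Those of conventional dendritic cells summed to 136 to 170, 30.3 to 77.0 and 140 to 194 RPM and those of plasmacytoid dendritic cells to 791 to 980, 268 to 465 and 655 to 847 RPM. The part of other cells in the changes of the members was not tested, and in bulk RNA fewer cells of a type and less RNA per cell cannot be told apart.

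Promoters were read for the members, and those of 7 genes called higher in both Ly6C hi comparisons of Slc29a3-/- cells are described. Of the 51 members, 48 were found in the RefSeq promoter table (GRCm38.p6), and motifs were searched on both strands in the 250 bases before the RefSeq start. The E2F-like motif TTTNNCGC was held by 5 of 48 members (10.4%) and 4.94% of 27025 genes, the E box CACGTG by 8 members (16.7%) and 6.86% of genes, and the CCAAT box CCAAT by 18 members (37.5%) and 37.5% of genes. None of Rrm1, Rrm2, Tyms, Dut, Dtymk, Tk1 and Ada held TTTNNCGC in this window, whereas Ppat and Nudt1 did. Other spellings of an E2F-like motif were not searched, so their absence is not shown. CCAAT was present in Rrm1, Rrm2, Dtymk and Ada and the E box in Tyms and Dtymk. The stretches of 5 of the 7 genes are shown from 5′ to 3′ in the direction of the gene, for the reductase pair that shares the CCAAT box, for Dtymk with both motifs, for Ada, and for Tk1, which holds none of the 3. Capitals mark CACGTG and CCAAT, the latter written ATTGG where it lies on the opposite strand. They span chr7:102441445-102441694, plus strand, chr12:24708004-24708253, plus strand, chr1:93801935-93802184, minus strand, chr2:163750240-163750489, minus strand and chr11:117826015-117826264, minus strand.
Rrm1: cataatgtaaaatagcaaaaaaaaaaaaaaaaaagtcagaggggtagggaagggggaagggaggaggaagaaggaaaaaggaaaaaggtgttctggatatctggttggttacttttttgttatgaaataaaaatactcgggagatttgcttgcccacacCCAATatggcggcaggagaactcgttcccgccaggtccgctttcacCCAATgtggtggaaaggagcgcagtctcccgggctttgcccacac
Rrm2: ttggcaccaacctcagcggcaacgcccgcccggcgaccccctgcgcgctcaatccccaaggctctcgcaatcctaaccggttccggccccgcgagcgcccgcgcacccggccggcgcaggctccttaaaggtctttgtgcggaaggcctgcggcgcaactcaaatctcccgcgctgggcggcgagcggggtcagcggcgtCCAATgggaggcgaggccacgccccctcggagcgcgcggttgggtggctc
Dtymk: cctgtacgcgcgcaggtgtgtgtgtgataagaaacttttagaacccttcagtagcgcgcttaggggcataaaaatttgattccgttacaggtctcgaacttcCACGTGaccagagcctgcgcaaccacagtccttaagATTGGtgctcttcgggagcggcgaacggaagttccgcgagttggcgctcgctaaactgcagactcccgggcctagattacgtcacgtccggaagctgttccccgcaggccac
Ada: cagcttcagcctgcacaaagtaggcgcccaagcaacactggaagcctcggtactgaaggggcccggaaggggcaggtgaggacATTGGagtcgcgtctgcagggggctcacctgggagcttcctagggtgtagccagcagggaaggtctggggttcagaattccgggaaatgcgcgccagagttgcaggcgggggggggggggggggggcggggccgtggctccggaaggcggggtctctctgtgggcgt
Tk1: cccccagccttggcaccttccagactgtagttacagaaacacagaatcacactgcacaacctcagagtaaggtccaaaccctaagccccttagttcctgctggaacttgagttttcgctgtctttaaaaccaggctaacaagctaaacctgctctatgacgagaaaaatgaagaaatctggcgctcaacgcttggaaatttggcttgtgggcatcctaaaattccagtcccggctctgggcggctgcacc
Rrm1 carries CCAAT starting 91 and 45 bases before the start, Rrm2 50 bases before it, Dtymk 112 bases and Ada 167 bases before it, and the E box of Dtymk starts 148 bases before it. A match of letters is a description of this window and not a binding site.

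Of the 9 measured enzymes of de novo purine synthesis, 2 were called higher in Slc29a3-/- Ly6C hi cells in both comparisons and none lower. These are 22.2%, against 10.5% of all genes called higher relative to Slc29a3-/- Tlr7-/- and 9.38% relative to WT. At the adjusted threshold in either direction the share was the same, against 17.2% and 22.4% of all genes, so it was near the background. Ppat (chr5:76913249-76951578), the amidotransferase of the committed step, was at 25.6, 29.8, 26 and 21.5 RPM in WT, 41.8, 31.5, 37.7 and 50.1 RPM in Slc29a3-/- and 26.2, 18, 27.7 and 20.5 RPM in Slc29a3-/- Tlr7-/- libraries. All Slc29a3-/- libraries were above the other groups, with a 1.74-fold difference from Slc29a3-/- Tlr7-/- cells (log2 difference 0.78 ± 0.18, adjusted p = 0.00886). The 1.56-fold difference from WT (0.62 ± 0.18, adjusted p = 0.0221) was lost without Slc29a3-/- replicate 4 (0.51) or without WT replicate 4 (0.54). Impdh1 (chr6:29200434-29216364), an IMP dehydrogenase at the branch to guanine nucleotides, was at 24.5, 25, 28.4 and 24.7 RPM in WT, 41.4, 32.8, 65.4 and 52.6 RPM in Slc29a3-/- and 30.1, 33.1, 21.8 and 35 RPM in Slc29a3-/- Tlr7-/- libraries. It was higher than in every WT library (1.87-fold, 0.84 ± 0.20, adjusted p = 0.00807), but it overlapped with the Slc29a3-/- Tlr7-/- libraries. That difference (0.64 ± 0.20, adjusted p = 0.0402) was no longer called without Slc29a3-/- replicate 3 (0.48), Slc29a3-/- replicate 4 (0.58) or Slc29a3-/- Tlr7-/- replicate 3 (0.50).

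The other 7 purine enzymes, Gart, Pfas, Paics, Adsl, Atic, Gmps and Adss, were not called in the 3 Ly6C hi comparisons of genotypes, with log2 differences of -0.12 to 0.47 between Slc29a3-/- and Slc29a3-/- Tlr7-/- cells. Relative to WT, Adss of Slc29a3-/- cells was at -0.53 ± 0.16 (adjusted p = 0.0257), short of the fold threshold. Its Slc29a3-/- libraries, at 122 to 175 RPM, lay below all WT libraries, at 186 to 241 RPM. Against WT replicate 4 alone, Adss was called lower in Slc29a3-/- cells (-0.70). Paics (chr5:76951307-76967509), which starts within the annotated Ppat gene on the opposite strand, was at 68.2, 75.2, 76.5 and 56.9 RPM in WT, 72, 62.2, 89 and 95 RPM in Slc29a3-/- and 57.6, 41.8, 72.1 and 57.5 RPM in Slc29a3-/- Tlr7-/- libraries. The groups overlapped, and the difference of 0.47 ± 0.18 from Slc29a3-/- Tlr7-/- cells was called under TMM scaling (0.63), not under RLE, and without Slc29a3-/- Tlr7-/- replicate 3 (0.59). The table does not say whether the amplicons of this overlapping pair were counted by strand.

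In the pyrimidine pathway, 1 of 5 members was called, higher in Slc29a3-/- than in Slc29a3-/- Tlr7-/- Ly6C hi cells (20%, against 10.5% of all genes). This member was Ctps (chr4:120539868-120570276), which aminates UTP to CTP. Its level was 8.12, 8.33, 6.72 and 8.42 RPM in WT, 12.3, 8.46, 11.9 and 17.7 RPM in Slc29a3-/- and 6.01, 6.01, 6.49 and 6.98 RPM in Slc29a3-/- Tlr7-/- libraries. The Slc29a3-/- libraries were above the Slc29a3-/- Tlr7-/- libraries without overlap (1.98-fold, 0.84 ± 0.21, adjusted p = 0.0109), and the difference of 0.57 ± 0.21 from WT fell short of the fold threshold on the log scale and passed it under TMM (0.74) and RLE (0.69), with a pseudocount of 0.1 (0.63) and without Slc29a3-/- replicate 2 or 3 or WT replicate 1, 2 or 4 (0.59 to 0.74). Cad, which carries out the opening steps of the pathway, was at 20.6, 15.9, 18.6 and 16.6 RPM in WT, 10.4, 11.8, 24.7 and 8.81 RPM in Slc29a3-/- and 15.2, 26.3, 18.8 and 15.3 RPM in Slc29a3-/- Tlr7-/- libraries. Umps, which completes UMP, was at 35.7, 25.7, 36.8 and 35.4 RPM in WT, 40.3, 46.3, 43.9 and 40.9 RPM in Slc29a3-/- and 37.7, 32.1, 52.9 and 31.9 RPM in Slc29a3-/- Tlr7-/- libraries. Both overlapped between Slc29a3-/- and Slc29a3-/- Tlr7-/- cells, and neither was called, with differences of -0.49 ± 0.27 and 0.17 ± 0.18. Without Slc29a3-/- replicate 3, the library in which it was highest, Cad was called lower in Slc29a3-/- cells, by -0.79 relative to Slc29a3-/- Tlr7-/- (adjusted p = 0.0262) and by -0.74 relative to WT (adjusted p = 0.0267), where the difference with all libraries was -0.44. Dhodh and Ctps2 were not called either.

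Among the 10 salvage enzymes, Tk1 and Dck were higher in Slc29a3-/- Ly6C hi cells than in WT (20%, against 9.38% of all genes). Adk and Mtap were lower (20%, against 17.3%), a share near that of all genes. Dck (chr5:88764996-88783281), which phosphorylates deoxycytidine, deoxyguanosine and deoxyadenosine, was at 104, 93.3, 110 and 135 RPM in WT, 164, 179, 209 and 157 RPM in Slc29a3-/- and 166, 152, 145 and 177 RPM in Slc29a3-/- Tlr7-/- libraries. Both mutants exceeded all WT libraries and overlapped with each other. Dck was called in Slc29a3-/- cells relative to WT (1.60-fold, 0.68 ± 0.14, adjusted p = 0.00296), and the differences were 0.54 ± 0.14 for Slc29a3-/- Tlr7-/- relative to WT (adjusted p = 0.0625) and 0.14 ± 0.14 between the mutants. With WT replicate 4 alone, the difference of Slc29a3-/- from WT was 0.38 (adjusted p = 0.44) and was not called.

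Adk (chr14:21052574-21448569), which returns adenosine to AMP, was at 38.3, 43.6, 37.7 and 45.8 RPM in WT, 29.1, 18.3, 22.5 and 26 RPM in Slc29a3-/- and 22.5, 28.6, 28.3 and 39 RPM in Slc29a3-/- Tlr7-/- libraries. The Slc29a3-/- libraries lay below all WT libraries (log2 difference -0.78 ± 0.18, adjusted p = 0.00694), and the difference from Slc29a3-/- Tlr7-/- cells was -0.29 ± 0.18. Mtap (chr4:89137122-89181081), which frees adenine from methylthioadenosine, was at 29.1, 32.8, 33.3 and 31.6 RPM in WT, 23.1, 19.5, 17.6 and 14.9 RPM in Slc29a3-/- and 23.6, 21, 24.9 and 24.4 RPM in Slc29a3-/- Tlr7-/- libraries. In Slc29a3-/- cells it was likewise below all WT libraries (-0.74 ± 0.15, adjusted p = 0.00343), but under TMM scaling it was -0.57 and below the fold threshold. The Slc29a3-/- Tlr7-/- libraries were below all WT libraries too, without a call, and overlapped with the Slc29a3-/- libraries. Dguok (chr6:83480217-83506969), the mitochondrial deoxyguanosine kinase, was at 49, 57.9, 48.2 and 43.4 RPM in WT, 33.4, 43.8, 28.1 and 36.9 RPM in Slc29a3-/- and 69.2, 62.3, 64.4 and 38.4 RPM in Slc29a3-/- Tlr7-/- libraries. A single Slc29a3-/- Tlr7-/- library overlapped with the Slc29a3-/- libraries. The difference of -0.69 ± 0.19 between the mutants (adjusted p = 0.0205) was not called under TMM (-0.53) or without Slc29a3-/- replicate 3 (adjusted p = 0.0641).

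Hprt, which salvages hypoxanthine and guanine, and Aprt, which salvages adenine, were not called in the Ly6C hi comparisons on the RPM scale. Hprt was at 56.5, 51.6, 51.5 and 77.4 RPM in WT, 89, 71.3, 100 and 91.3 RPM in Slc29a3-/- and 62, 53.7, 62.8 and 86 RPM in Slc29a3-/- Tlr7-/- libraries. Aprt was at 93.8, 71.6, 106 and 61 RPM in WT, 109, 134, 122 and 114 RPM in Slc29a3-/- and 100, 93.3, 67.4 and 92.8 RPM in Slc29a3-/- Tlr7-/- libraries. Aprt of the Slc29a3-/- libraries was above all others, whereas Hprt overlapped between the groups. Hprt and Aprt were 0.57 ± 0.17 and 0.55 ± 0.18 higher in Slc29a3-/- than in WT cells, just under the fold threshold, which is 0.58 in log2. They were called under TMM (0.75 and 0.73) and under RLE (0.69 and 0.67). Hprt was called as well without Slc29a3-/- replicate 2 (0.67) or WT replicate 4 (0.71), and Aprt without Slc29a3-/- replicate 1 or WT replicate 1 or 3 (0.59 to 0.68) and relative to WT replicate 4 alone (0.96, adjusted p = 0.081). Tk2, Uck1 and Uck2 were not called in any Ly6C hi comparison of genotypes.

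**Figure D3:**
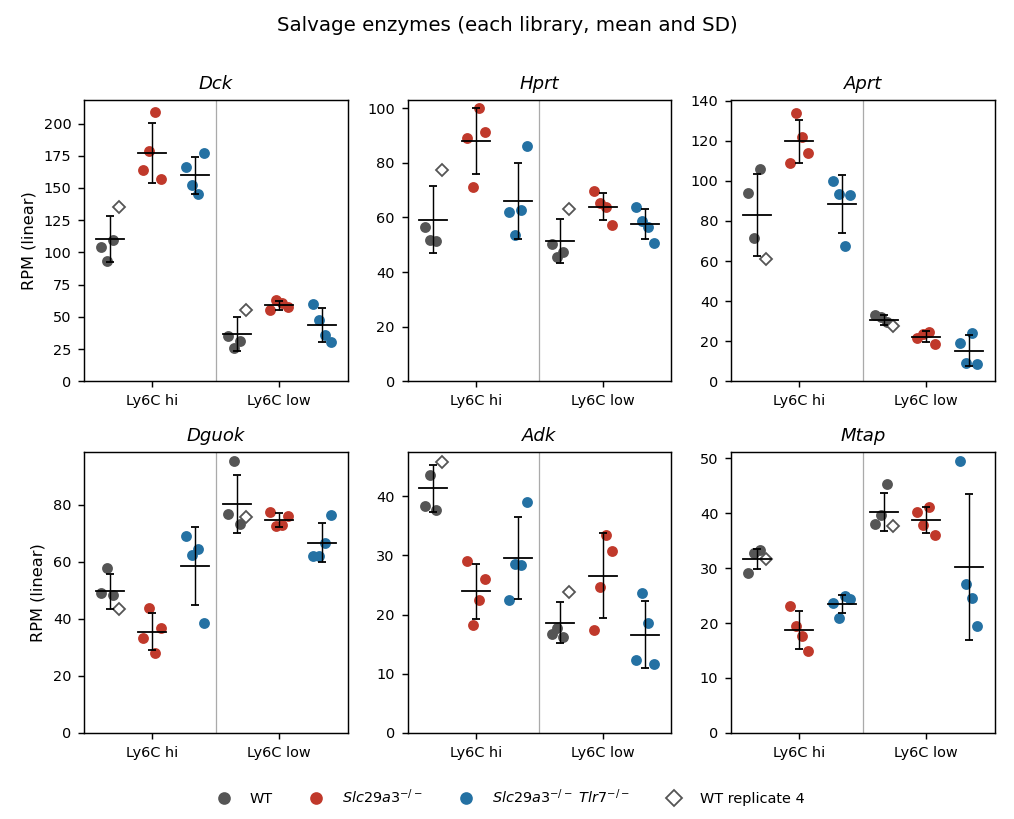
RPM of 6 salvage enzymes in each library of the 6 groups (linear axis; points are libraries, the long bar is the mean and the whiskers are the SD of 4 libraries; the open diamond is WT replicate 4). In Ly6C hi cells Adk and Mtap of Slc29a3-/- libraries lie below WT, at 18.3 to 29.1 and 14.9 to 23.1 RPM, whereas Dck lies above WT in both mutants.

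Nucleoside breakdown beyond Ada was barely measured. Cda, the cytidine deaminase, was listed at 0 in the 12 Ly6C hi libraries and at no more than 0.08 RPM in Ly6C low ones, and Tymp, the thymidine phosphorylase, reached 0.208 RPM at most. Both were below the filter of 1 RPM in 4 libraries. Upp1, the uridine phosphorylase, was at 1.87, 2.15, 1.26 and 1.79 RPM in WT, 1.67, 3.48, 3.01 and 3.26 RPM in Slc29a3-/- and 1.62, 0.569, 0.554 and 3.69 RPM in Slc29a3-/- Tlr7-/- libraries. The groups overlapped, and none of its genotype comparisons was called on the log2(RPM + 1) scale with all libraries. The difference between the mutants in Ly6C hi cells, 0.69, was called under TMM (0.80) and RLE (0.76), and it was 1.14 with a pseudocount of 0.1 (adjusted p = 0.144), 1.03 without Slc29a3-/- Tlr7-/- replicate 4 (adjusted p = 0.0207) and 0.86 without Slc29a3-/- replicate 1 (adjusted p = 0.11).

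The nucleotide-degrading enzymes did not move as a block, and in Ly6C hi cells the calls fell on Nt5e, Samhd1 and Entpd1. Relative to WT, 1 of 8 was lower in Slc29a3-/- cells (12.5%, against 17.3% of all genes). In Slc29a3-/- Tlr7-/- cells 1 was higher (12.5%, against 3.12%) and 1 lower (12.5%, against 9.44%). Between the mutants 2 were lower in Slc29a3-/- cells (25%, against 11.9%) and 0 higher (0%, against 10.5%). Samhd1 (chr2:157097533-157135265), the triphosphohydrolase that removes deoxynucleotides, was at 442, 413, 465 and 732 RPM in WT, 710, 812, 913 and 341 RPM in Slc29a3-/- and 839, 1200, 1060 and 1140 RPM in Slc29a3-/- Tlr7-/- libraries. Slc29a3-/- Tlr7-/- libraries were all above WT libraries, whereas the Slc29a3-/- group held both a library below WT and libraries above it. The difference of Slc29a3-/- Tlr7-/- from WT was 1.08 ± 0.27 (adjusted p = 0.0578), that of Slc29a3-/- from WT was 0.38 ± 0.27, and that between the mutants was -0.69 ± 0.27 (adjusted p = 0.0792). Without Slc29a3-/- replicate 4, the lowest library of its group, the difference of Slc29a3-/- from WT was 0.69 and was called (adjusted p = 0.0241). The difference between the mutants was not called without Slc29a3-/- replicate 4 (-0.38) or under TMM (-0.54), and that of Slc29a3-/- Tlr7-/- from WT was 0.52 with WT replicate 4 alone and was not called.

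Nt5e (chr9:88327197-88372092), the CD73 ectoenzyme that makes adenosine from extracellular AMP, was at 5.9, 5.9, 4.83 and 0.78 RPM in WT, 0.239, 0.079, 0 and 0 RPM in Slc29a3-/- and 1, 0, 0.475 and 0.481 RPM in Slc29a3-/- Tlr7-/- libraries. WT replicates 1 to 3 stood above all other libraries, and WT replicate 4 lay within the range of the Slc29a3-/- Tlr7-/- libraries. On the log2(RPM + 1) scale the difference was -2.13 ± 0.39 in Slc29a3-/- (adjusted p = 0.00147) and -1.70 ± 0.39 in Slc29a3-/- Tlr7-/- (adjusted p = 0.0466) relative to WT. Nt5e did not pass the filter with WT replicate 4 alone, so these differences were not tested against that library. The 8 measured T cell genes, a lineage that can express CD73, summed to 224 to 230 RPM in WT replicates 1 to 3, 60.4 RPM in WT replicate 4, 9.83 to 21.7 RPM in Slc29a3-/- and 19.3 to 116 RPM in Slc29a3-/- Tlr7-/- Ly6C hi libraries, and their part in Nt5e was not tested.

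Entpd1 (chr19:40612366-40741602), the CD39 ectoenzyme that degrades extracellular ATP and ADP, was at 40, 47.7, 48 and 51.8 RPM in WT, 42.8, 46.4, 38.5 and 34.5 RPM in Slc29a3-/- and 57.1, 80.5, 54.7 and 61.7 RPM in Slc29a3-/- Tlr7-/- libraries. Slc29a3-/- cells were below Slc29a3-/- Tlr7-/- cells without overlap (-0.63 ± 0.15, adjusted p = 0.0106). The call was lost under TMM (-0.47), under RLE (-0.53), and without Slc29a3-/- replicate 4 (-0.56) or Slc29a3-/- Tlr7-/- replicate 2 (-0.51). Relative to WT, Entpd1 of Slc29a3-/- cells differed by -0.21 ± 0.15 with overlap (adjusted p = 0.332). All Slc29a3-/- Tlr7-/- libraries lay above all WT libraries, a difference that was not called. Nt5c, Nt5c2, Nt5c3, Ampd2 and Ampd3 were not called in a Ly6C hi comparison of genotypes on the RPM scale, and Nt5c3 was called between the mutants under TMM (0.87) and RLE (0.82) and without Slc29a3-/- replicate 2 or Slc29a3-/- Tlr7-/- replicate 1 or 4 (0.86 to 1.01).

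**Figure D4:**
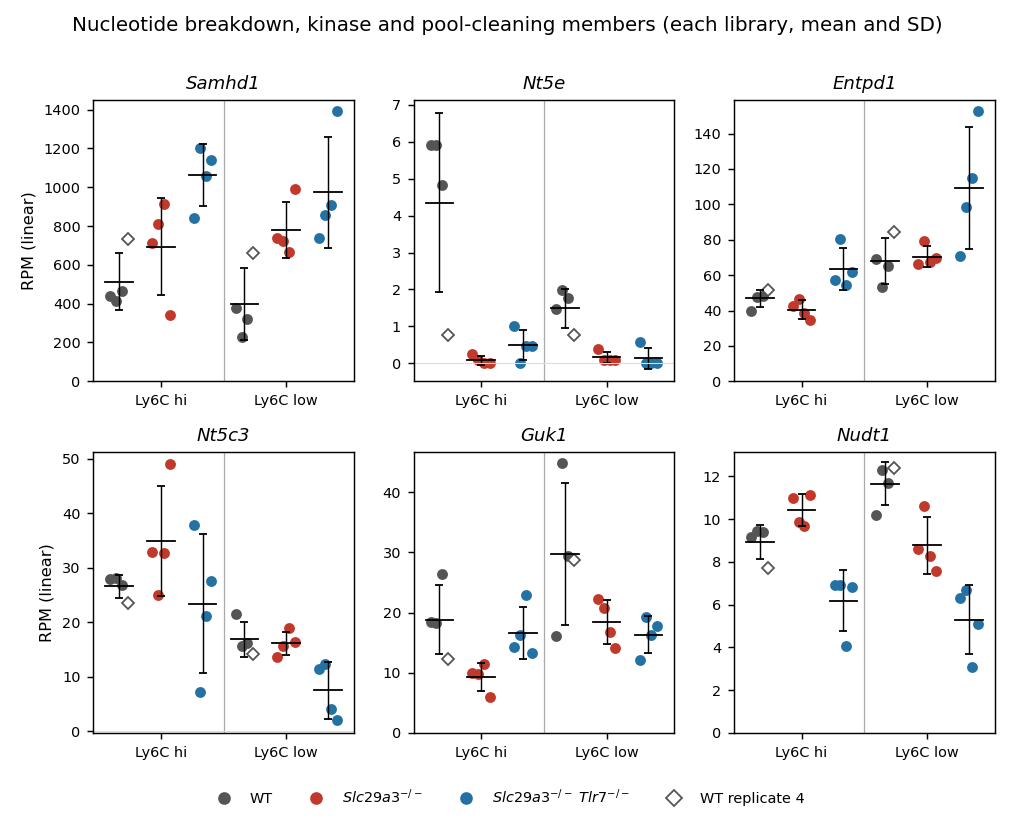
RPM of 4 nucleotide-degrading enzymes, Guk1 and Nudt1 in each library of the 6 groups (linear axis; points are libraries, the long bar is the mean and the whiskers are the SD of 4 libraries; the open diamond is WT replicate 4). For Samhd1 and Nt5e the diamond of Ly6C hi WT cells stands apart from the other 3 WT libraries, at 732 RPM against 413 to 465 RPM and at 0.78 RPM against 4.83 to 5.9 RPM.

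Of the 3 measured kinases and pool-cleaning enzymes, 2 differed between the mutants in Ly6C hi cells. In Slc29a3-/- cells Nudt1 was higher (33.3%, against 10.5% of all genes) and Guk1 lower (33.3%, against 11.9%). Guk1 (chr11:59183875-59192212), which phosphorylates GMP, was at 18.5, 18.2, 26.4 and 12.3 RPM in WT, 9.95, 9.8, 11.4 and 5.96 RPM in Slc29a3-/- and 14.2, 16.2, 22.9 and 13.2 RPM in Slc29a3-/- Tlr7-/- libraries. Slc29a3-/- libraries were below all others, by -0.78 ± 0.25 from Slc29a3-/- Tlr7-/- (adjusted p = 0.0411) and -0.93 ± 0.25 from WT (adjusted p = 0.0135), and with WT replicate 4 alone the difference from WT was -0.41 and not called. Nudt1 (chr5:140321656-140338137), which clears oxidized purine triphosphates, was at 9.16, 9.44, 9.38 and 7.72 RPM in WT, 11, 9.88, 9.67 and 11.1 RPM in Slc29a3-/- and 6.93, 6.9, 4.04 and 6.82 RPM in Slc29a3-/- Tlr7-/- libraries. The mutants did not overlap (0.69 ± 0.19, adjusted p = 0.0206), and without Slc29a3-/- Tlr7-/- replicate 3 the difference was 0.53 and was not called. Relative to WT, Nudt1 of Slc29a3-/- cells was 0.20 ± 0.19 higher (adjusted p = 0.46) and was not called. All Slc29a3-/- Tlr7-/- libraries lay below all WT libraries, and all Slc29a3-/- libraries lay above them. Cmpk1, the UMP and CMP kinase, was not called in any comparison.

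Ly6C hi cells without both Slc29a3 and Tlr7 had 4 members that differed from WT. Samhd1 was called higher, 2.27% of the 44 members against 3.12% of all genes, and Nt5e, Rrm2 and Dtymk were called lower, 6.82% against 9.44%. Nt5e alone passed the adjusted threshold (2.27% of members, against 1.42% of all genes). Rrm2 was -0.82 ± 0.29 (adjusted p = 0.121) and Dtymk -0.66 ± 0.29 (adjusted p = 0.185), with overlapping groups in both. With WT replicate 4 alone they were -0.18 and -0.23, and none of the 42 members tested was called in that comparison, against 2.07% of all genes. Nt5e and Dctd were not among those tested. The count of 4 calls became 2 without Slc29a3-/- Tlr7-/- replicate 3 or any of WT replicates 1 to 3, 9 without Slc29a3-/- Tlr7-/- replicate 4 and 8 without WT replicate 4. In the last of these fits Tk1 (-0.76, adjusted p = 0.0394) and Dck (0.64, adjusted p = 0.00971) passed the adjusted threshold.

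In Ly6C low monocytes Samhd1 was the member that passed the adjusted threshold in both mutants relative to WT. Its level was 380, 230, 322 and 662 RPM in WT, 740, 724, 668 and 992 RPM in Slc29a3-/- and 738, 859, 907 and 1390 RPM in Slc29a3-/- Tlr7-/- libraries. Both mutant groups were above all WT libraries, and WT replicate 4 lay close to them. The difference from WT was 1.06 ± 0.28 in Slc29a3-/- (1.96-fold, adjusted p = 0.0435) and 1.35 ± 0.28 in Slc29a3-/- Tlr7-/- cells (2.44-fold, adjusted p = 0.0155). With WT replicate 4 alone these were 0.22 and 0.51, and neither was called. Between the mutants the difference was -0.29 ± 0.28.

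In Slc29a3-/- Ly6C low cells relative to WT, 2 of 42 members were higher (4.76%, against 6.15% of all genes) and 1 was lower (2.38%, against 7.05%). Samhd1 was the member with an adjusted p under 0.05 (2.38%, against 4.43%). The others were Dck (0.72 ± 0.24, adjusted p = 0.101), at 35.5, 25.5, 31 and 55.3 RPM in WT, 55.1, 62.9, 60.4 and 57.7 RPM in Slc29a3-/- and 60.1, 47.8, 35.8 and 30.7 RPM in Slc29a3-/- Tlr7-/- libraries, and Guk1 (-0.59 ± 0.27, adjusted p = 0.233). The WT and Slc29a3-/- libraries overlapped for Dck through WT replicate 4. With WT replicate 4 alone as WT no member was called, and the count was 1 without Ly6C low WT replicate 2 and 6 without WT replicate 4.

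Slc29a3-/- Tlr7-/- Ly6C low cells had 2 of 42 members higher than WT (4.76%, against 6.08% of all genes) and 9 lower (21.4%, against 14.6%), of which 4 (9.52%, against 8.31%) passed the adjusted threshold. These were Samhd1, higher, and Aprt, Nt5c3 and Nudt1, lower. Aprt was at 32.9, 32.2, 29.8 and 27.5 RPM in WT, 21.8, 23.6, 24.8 and 18.4 RPM in Slc29a3-/- and 19.2, 8.97, 24.1 and 8.71 RPM in Slc29a3-/- Tlr7-/- libraries. The Slc29a3-/- Tlr7-/- libraries were all below WT (-1.08 ± 0.28, adjusted p = 0.0323). Nt5c3, a cytosolic pyrimidine nucleotidase, was at 21.6, 15.7, 16.2 and 14.2 RPM in WT, 13.7, 15.7, 18.9 and 16.4 RPM in Slc29a3-/- and 11.5, 12.4, 4.18 and 2.08 RPM in Slc29a3-/- Tlr7-/- libraries. It was below WT without overlap, most clearly in replicates 3 and 4 (-1.30 ± 0.38, adjusted p = 0.0487). Nudt1 was at 10.2, 12.3, 11.7 and 12.4 RPM in WT, 8.59, 10.6, 8.28 and 7.55 RPM in Slc29a3-/- and 6.3, 6.67, 3.08 and 5.11 RPM in Slc29a3-/- Tlr7-/- libraries. It too was below WT without overlap (-1.05 ± 0.22, adjusted p = 0.0175), and it was called relative to WT replicate 4 alone (-1.13), whereas Aprt (-0.94) and Nt5c3 (-1.08) were not. Entpd1 was higher, and Ctps2, Uck2, Rrm2, Tyms, Dut and Guk1 were lower at the unadjusted threshold alone. Of these, Rrm2 changed sign against WT replicate 4 (0.11). In that comparison 5 of 42 members were called (11.9%, against 9.62% of all genes), Gart, Guk1, Nudt1, Rrm2b and Umps, all lower. Mtap was called without Slc29a3-/- Tlr7-/- replicate 1 (-0.74, adjusted p = 0.0179), against -0.48 with all libraries, and Paics without WT replicate 4 (-0.69, adjusted p = 0.0236), against -0.55. The count of 11 was 7 without Ly6C low WT replicate 2. The summed neutrophil genes, at 251 to 2620 RPM in WT, 150 to 334 RPM in Slc29a3-/- and 154 to 217 RPM in Slc29a3-/- Tlr7-/- Ly6C low libraries, were highest in that WT library, and the erythroid genes were at 66.5 to 140, 159 to 204 and 25.8 to 90.7 RPM. Their part in these differences was not tested.

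Between the mutants in Ly6C low cells, 7 of 42 members were higher in Slc29a3-/- (16.7%, against 10.8% of all genes) and none was lower (0%, against 2.92%). They were Uck2, Aprt, Adk, Nt5c3, Ampd2, Tyms and Nudt1, with log2 differences from 0.63 to 1.25. None passed the adjusted threshold in limma, which 1.93% of all genes did. The count was 3 without replicate 3 of either mutant, 4 without Slc29a3-/- replicate 4 and 12 without Slc29a3-/- Tlr7-/- replicate 1, where Mtap (0.70, adjusted p = 0.0388) and Entpd1 (-0.76, adjusted p = 0.0437) also passed the adjusted threshold, and the split of higher and lower members was 5 and 1 under TMM and 5 and 2 under RLE.

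Interaction terms, fitted over the 24 libraries together, asked whether the genotype effect differed between the subsets. For Slc29a3-/- against Slc29a3-/- Tlr7-/-, 8 of 44 members (18.2%) differed between the subsets at an adjusted p under 0.05, against 8.97% of all 11042 genes tested. The effect was larger in Ly6C hi cells for Ada (2.51 ± 0.42, adjusted p = 0.000862), Rrm2 (1.71 ± 0.44, adjusted p = 0.0158), Tk1 (1.68 ± 0.40, adjusted p = 0.00988), Dtymk (1.55 ± 0.35, adjusted p = 0.00741), Rrm1 (1.53 ± 0.34, adjusted p = 0.00573), Dut (1.23 ± 0.38, adjusted p = 0.0441) and Ppat (0.78 ± 0.23, adjusted p = 0.038). It was lower for Dguok, at -0.86 ± 0.23 (adjusted p = 0.0215). Tyms did not pass (1.29 ± 0.58, adjusted p = 0.167), so a difference between the subsets is not shown for it. The median gene was at -0.20 in this contrast and at -0.15 in the one with WT. Without Ly6C hi Slc29a3-/- replicate 3 the count was 5. Under TMM or RLE scaling 7 members passed, all with a larger effect in Ly6C hi cells.

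For Slc29a3-/- against WT, 7 of 44 members (15.9%) differed between the subsets, against 8.85% of all genes. They were Ada, Dut, Rrm2, Tk1, Rrm1 and Dtymk with a larger effect in Ly6C hi cells, from 1.22 to 2.24 in log2, and Adk with the opposite sign. Adk was at 16.8, 17.8, 16.2 and 23.8 RPM in WT, 17.4, 24.7, 33.5 and 30.7 RPM in Slc29a3-/- and 12.4, 23.7, 18.6 and 11.7 RPM in Slc29a3-/- Tlr7-/- libraries in Ly6C low cells, where Slc29a3-/- overlapped with WT (0.47 ± 0.26), and its interaction was -1.24 ± 0.32 (adjusted p = 0.0148). With WT replicate 4 alone none of the 42 members tested passed, and 0.213% of all genes did.

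The subsets differed in these genes within every genotype, and most of the genes called were higher in Ly6C hi cells. In WT, 14 of 44 members (31.8%) were higher in Ly6C hi and 2 (4.55%) lower at an adjusted p under 0.05 and a fold over 1.5, against 17.5% and 8.46% of all genes. In Slc29a3-/- the counts were 14 and 5 (31.8% and 11.4%, against 16.5% and 18.5%), and in Slc29a3-/- Tlr7-/- they were 14 and 2 (31.8% and 4.55%, against 18.7% and 9.64%), where the median gene was at 0.12 in log2. Rrm1, Rrm2, Tyms, Dut, Dtymk, Tk1, Ada, Dck, Uck2, Aprt and Impdh1 were higher in Ly6C hi cells in each of the 3 genotypes. The replication and mitosis genes were likewise higher in Ly6C hi cells, 19, 20 and 16 of 20 in WT, Slc29a3-/- and Slc29a3-/- Tlr7-/-.

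In WT the differences between the subsets were largest for Rrm2 (3.11 ± 0.31), Tyms (2.42 ± 0.41), Uck2 (2.2 ± 0.37) and Tk1 (2.08 ± 0.28) among the members, and all 4 had adjusted p-values of 5.45e-05 or less. In Slc29a3-/- cells they were 4.72, 3.78, 2.41 and 3.66. Dck in WT was at 104, 93.3, 110 and 135 RPM in Ly6C hi and 35.5, 25.5, 31 and 55.3 RPM in Ly6C low cells, a 3-fold difference without overlap (1.60 ± 0.20, adjusted p = 6.93e-07). Uck2, which phosphorylates uridine and cytidine, was at 42.9, 54.3, 50.7 and 47.8 RPM against 8.25, 11, 8.5 and 11.9 RPM in the same groups.

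Ppat ran the other way. It was 0.87 ± 0.17 lower in Ly6C hi than in Ly6C low cells in WT (adjusted p = 0.000207) and 1.10 ± 0.17 lower in Slc29a3-/- Tlr7-/- (adjusted p = 1.1e-05), and was not called in Slc29a3-/- cells. Its Ly6C low level was 46, 43.8, 54.3 and 47.2 RPM in WT, 48.6, 52.1, 52.9 and 45.9 RPM in Slc29a3-/- and 61.5, 47.8, 52.5 and 40 RPM in Slc29a3-/- Tlr7-/- libraries, with overlap among the 3 genotypes. Dguok was lower in Ly6C hi cells in WT (-0.68 ± 0.16) and Slc29a3-/- (-1.07 ± 0.16), Entpd1 in both mutants (-0.79 ± 0.18 in Slc29a3-/- and -0.74 ± 0.18 in Slc29a3-/- Tlr7-/-), and Mtap, Guk1 and Tk2 in Slc29a3-/-.

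**Figure D5:**
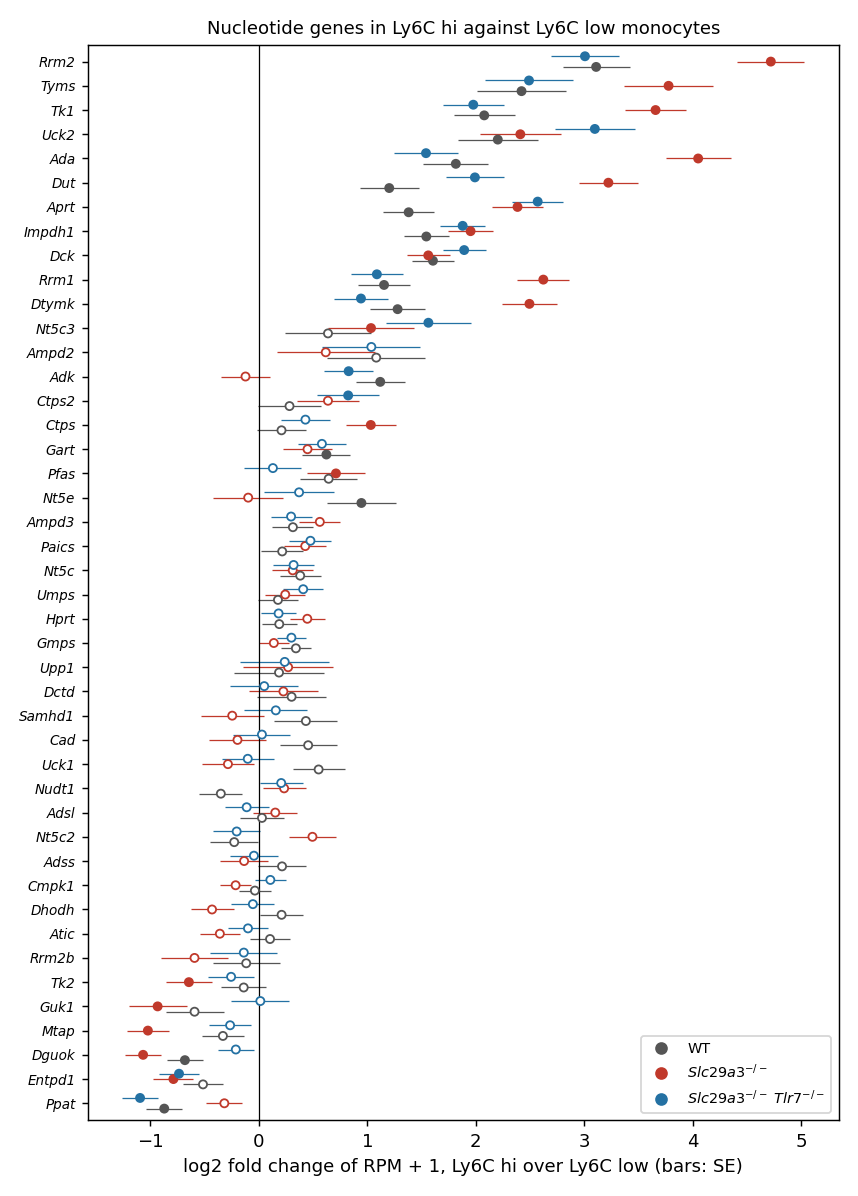
Log2 fold change of RPM + 1 of Ly6C hi over Ly6C low monocytes for the 44 tested members, ordered by their mean, in the 3 genotypes (points; bars are the SE; filled points had a fold over 1.5 and an adjusted p under 0.05). The red points of Slc29a3-/- lie to the right of the other genotypes for Rrm2, Tyms, Tk1, Ada, Dut, Rrm1 and Dtymk, for Rrm2 at 4.72 against 3.11 in WT and 3.01 in Slc29a3-/- Tlr7-/-.

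When the members are sorted into synthesis, salvage and breakdown, none of these 3 classes moved as a whole in Ly6C hi cells. For Slc29a3-/- against Slc29a3-/- Tlr7-/-, median log2 differences were 0.23 (14 synthesis genes), 0.16 (10 salvage genes) and 0.06 (10 breakdown genes). In this order, 3 (21.4%), 1 (10%) and 1 (10%) were called higher, against 10.5% of all genes. Those called lower were 0 (0%), 1 (10%) and 2 (20%), against 11.9%. Over all genes the median was -0.12, and over the 7 deoxynucleotide supply genes it was 1.48. Relative to WT the medians of Slc29a3-/- cells were 0.06 for synthesis, -0.17 for salvage, 0.25 for breakdown and 1.23 for deoxynucleotide supply, beside -0.14 over all genes. In Ly6C low cells the medians between the mutants were 0.21, 0.40, -0.29 and 0.30, beside 0.08. In the same order 0 (0%), 3 (30%), 2 (22.2%) and 1 (16.7%) were called higher, against 10.8% of all genes. None was called lower, against 2.92%, and none passed the adjusted threshold. All 10 salvage genes had a positive difference, and of 9 breakdown genes 3 were positive and 6 negative.

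Further genes of nucleotide metabolism, listed by function and not members, were called in both directions. Of 52 genes, 50 had an amplicon and 35 were tested in Ly6C hi cells. Between Slc29a3-/- and Slc29a3-/- Tlr7-/- cells 6 were higher (17.1%, against 10.5% of all genes) and 3 lower (8.57%, against 11.9%), with a median of 0.04. Among the higher genes were Entpd5, a nucleoside diphosphatase of the endoplasmic reticulum (67.7 ± 16.7 against 22 ± 6.10 RPM, SD, n = 4, 1.58 ± 0.20 in log2), and Nme6, a relative of the nucleoside diphosphate kinases (18.2 ± 4.19 against 7.87 ± 1.94 RPM, 1.11 ± 0.22). The 3 lower ones were Prpsap1 (-0.75 ± 0.18), Upb1, the last enzyme of pyrimidine base breakdown (-0.95 ± 0.29), and Entpd6 (-0.59 ± 0.19).

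Relative to WT, Slc29a3-/- Ly6C hi cells had 7 of these genes higher (20%, against 9.38% of all genes), led by Entpd5 (1.5 ± 0.20), Nme6 (1.20 ± 0.22) and Shmt1 (1.29 ± 0.23), and 6 lower (17.1%, against 17.3%), led by Nt5c3b (-1.44 ± 0.26), Lacc1 (-0.96 ± 0.23) and Upb1 (-1.16 ± 0.29). Slc29a3-/- Tlr7-/- cells had 2 higher (5.71%, against 3.12%), Adssl1 (0.70 ± 0.15) and Gmpr2 (0.61 ± 0.21), and 3 lower (8.57%, against 9.44%), Nt5c3b (-1.12 ± 0.26), Nme4 (-1.26 ± 0.30) and Ak3 (-0.63 ± 0.20). In Ly6C low cells 34 were tested. Slc29a3-/- cells had Nt5c3b (-1.10 ± 0.22) and Upb1 (-0.91 ± 0.33) lower than WT (5.88%, against 7.05%), and Slc29a3-/- Tlr7-/- cells had 6 lower (17.6%, against 14.6%), led by Uckl1 (-0.87 ± 0.16), Ak3 (-1.15 ± 0.23) and Prps1 (-0.64 ± 0.17). Between the mutants Prpsap2 (0.78 ± 0.27) and Ak3 (0.60 ± 0.23) were higher in Slc29a3-/- cells (5.88%, against 10.8%), neither with an adjusted p under 0.05. Between the subsets, 9, 15 and 12 of 36 tested genes were higher in Ly6C hi cells in WT, Slc29a3-/- and Slc29a3-/- Tlr7-/- (25%, 41.7% and 33.3%, against 17.5%, 16.5% and 18.7% of all genes), and 2, 5 and 2 were lower (5.56%, 13.9% and 5.56%, against 8.46%, 18.5% and 9.64%).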

How the data were processed

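RNA was extracted from sorted splenic monocytes, and libraries were made from 1 ng of RNA with the Ion AmpliSeq Transcriptome Mouse kit. The authors deposited a table of RPM, reads per 1000000, of 23930 amplicons in 24 libraries. The study's methods give Cutadapt, STAR on mm10, HTSeq and DESeq2, but which step wrote the table is not stated in the sources used here, and the columns sum to 1000000, without a further scaling. The value 0.0001 was read as 0, and 27 gene names that a spreadsheet had turned into dates were repaired from the amplicon names. Whether an amplicon also takes reads of a near-identical gene copy cannot be read from the table. Counts were not given, so no count model was run.

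The filter required 1 RPM or more in 4 or more libraries. Linear models of log2(RPM + 1) used limma 3.58.1 (R 4.3.3) with an intensity trend. Each subset was fitted with its 3 genotypes, and all 24 libraries were fitted for subset differences and interactions. All p-values are two-sided and were adjusted by Benjamini and Hochberg over all genes tested. Errors of log2 differences are standard errors, and other errors are SD. The fit was tested on simulated data. The members, the lists and the alternatives were chosen with earlier results of these data known. The members described with the value of each library are those called at an adjusted p under 0.05 in a Ly6C hi comparison of Slc29a3-/- cells or in a Ly6C low comparison, up to 5 per role, and a fixed set of examples. Of the further genes of nucleotide metabolism, those with the smallest adjusted p in each direction are named, up to 3, and 1 of them is not reported here. Cell type lists were the neutrophil, granulocyte-monocyte progenitor, erythroid, B cell, T cell, NK cell, dendritic cell and monocyte genes.

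Replicate numbers did not pair libraries between genotypes. Between Ly6C hi and Ly6C low WT libraries, deviations from the group mean correlated at 0.26 to 0.62 in the 4 pairs. WT replicate 4 differs from the other WT replicates by barcode series in both subsets. These correlations therefore cannot show whether the numbers pair WT libraries. In the mutants they ran from -0.456 to 0.338 and showed no regular pairing. Gene positions are from GENCODE vM21 on mm10. Python 3.11.15, pandas 2.3.3 and matplotlib 3.10.9 made the tables and figures.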

Additional observations from a re-analysis of the deposited data

Results flagged for a closer look

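For the members listed here, genotype differences depended on the monocyte subset in interaction tests. Slc29a3-/- and Slc29a3-/- Tlr7-/- cells both lack Slc29a3, so their contrast is by Tlr7 status. In Slc29a3-/- relative to WT the log2 difference between the subsets was 2.24 for Ada, 2.02 for Dut, 1.61 for Rrm2, 1.58 for Tk1, 1.47 for Rrm1, 1.22 for Dtymk and -1.24 for Adk. In Slc29a3-/- relative to Slc29a3-/- Tlr7-/- it was 2.51 for Ada, 1.71 for Rrm2, 1.68 for Tk1, 1.55 for Dtymk, 1.53 for Rrm1, 1.23 for Dut, 0.78 for Ppat and -0.86 for Dguok.

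Single libraries stood far from the other 3 of their group in 13 of 156 groups of 4 checked over 27 members, where chance gives about 1 in 20. In Ly6C hi WT cells replicate 4 was such a library for Tk1 (18.95 RPM), Rrm2 (76.83 RPM), Nudt1 (7.722 RPM) and Samhd1 (732.1 RPM), replicate 3 for Impdh1 (28.43 RPM) and replicate 2 for Umps (25.67 RPM). In Ly6C hi Slc29a3-/- cells replicate 4 was far above its group for Rrm2 (440 RPM) and Tyms (108.9 RPM). In Ly6C hi Slc29a3-/- Tlr7-/- cells replicate 3 was low for Nudt1 (4.039 RPM). In Ly6C low WT cells replicate 2 was high for Dguok (95.32 RPM) and Dut (14.62 RPM). Nt5e stood apart in replicate 1 of Ly6C low Slc29a3-/- (0.398 RPM) and Slc29a3-/- Tlr7-/- cells (0.565 RPM), where the other libraries held no more than a read.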

How the results depend on the processing

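The number of members called stayed within 1.5 times the reported one in the 11 comparisons under TMM and RLE scaling, without a filter and with a pseudocount of 0.1, and in the 3 comparisons between subsets under every alternative run. Requiring a mean of at least 10 RPM gave 7 members in Slc29a3-/- Tlr7-/- against WT and 4 between the mutants in Ly6C low cells, where fewer members were tested. The adjusted threshold left 1 in Ly6C hi Slc29a3-/- Tlr7-/- against WT and, in Ly6C low cells, 1 in Slc29a3-/- against WT, 4 in Slc29a3-/- Tlr7-/- against WT and 0 between the mutants in limma, where 7 passed the unadjusted threshold. Fitting the compared groups alone gave 5 in Ly6C low Slc29a3-/- against WT and 4 between the mutants, and the cause was not tested. With WT replicate 4 alone as WT the counts were 0 in Ly6C hi Slc29a3-/- Tlr7-/-, 0 and 5 in Ly6C low Slc29a3-/- and Slc29a3-/- Tlr7-/-, and 0 for the subset difference of Slc29a3-/- and WT, where a lone WT library remains. Nt5e and Dctd were not tested in the Ly6C hi and subset fits of that kind, so the calls of Nt5e were not repeated. Rrm2 in Ly6C low Slc29a3-/- Tlr7-/- cells then changed sign (0.113), and the cause was not tested. Leaving out a library in turn gave 14 to 16, 2 to 9 and 12 to 17 members in the Ly6C hi comparisons (Slc29a3-/- against WT, Slc29a3-/- Tlr7-/- against WT, between the mutants), 1 to 6, 7 to 13 and 3 to 12 in the same Ly6C low comparisons, and 5 to 8 and 5 to 9 for the subset differences relative to WT and Slc29a3-/- Tlr7-/-. Among single members, 347 repeats with a library left out kept the direction and the call and 46 lost the call. With the replicate block, the paired counts were 14, 5 and 17 in Ly6C hi, 3, 10 and 6 in Ly6C low, 19, 20 and 17 between subsets in WT, Slc29a3-/- and Slc29a3-/- Tlr7-/-, and 6 and 6 for the subset differences, none of which moved by over 1.5 times. Same-numbered libraries correlated at -0.193 to 0.157 between genotypes and at -0.456 to 0.338 between subsets of the mutants. Depth limits members near the floor, such as Cda, Tymp and Nt5e.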
